A study of Mus musculus with 6 samples.

Results

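The transcripts described here are those of 42 listed genes that drive or carry out DNA replication, mitosis and cyclin-dependent kinase control, read in mouse liver with and without the transcription factor Slug (gene symbol Snai2) in hepatocytes. A listed gene was read where the platform annotation gave it a probe set of its own, and of several such probe sets the brightest, averaged over the 6 arrays, stood for it. This left 40 of the 42 genes, among 22180 genes on the arrays. Ccnb1 and Ccne2 had no probe set of their own and are not analysed here. The 3 HKO mice carried floxed Slug and albumin-CreERT2, an inducible Cre recombinase driven by the promoter of the hepatocyte gene albumin, and are labelled SlugHKO. The 3 Con mice were their littermates, labelled Slug f/f. All were C57BL/6J males that received a diet with 60% of calories from fat from 8 weeks of age for 11 weeks. Each mouse gave 1 Affymetrix array of total liver RNA. The albumin promoter is active in hepatocytes, whereas the RNA comes from all cells of the liver piece. The sources used here do not give how Cre was induced or whether Con mice carried it.

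Cells enter the cycle when D-type cyclins activate Cdk4 and Cdk6, which release E2F transcription factors from the retinoblastoma proteins. E2F then raises transcription of the replication genes, among them the MCM helicase that opens DNA at origins. Later a wave of mitotic genes follows, driven by the MMB complex and Foxm1, which builds the spindle and activates Cdk1 with cyclins A and B. Adult hepatocytes rest outside the cycle, and dividing cells in a fatty liver include both hepatocytes and infiltrating or resident non-parenchymal cells.

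The log2 values are RMA summaries, and a difference of 1 on that scale is a doubling of the array signal. Slug transcript was lower in HKO livers, with 4.62, 5.23 and 5.69 in HKO replicates 1 to 3 against 7.74, 7.69 and 7.39 in Con replicates 1 to 3 (limma adjusted p = 0.0145). Whether the probes lie within the deleted exons was not tested. Hepatocyte markers had mean log2 values of 10.70 to 10.88 on HKO arrays and 10.65 to 10.69 on Con arrays, and 0 of the 8 lay below the array median. The array median over genes was 3.95. A gene with a mean over the 6 arrays below it is called dim, since its signal is not shown to be above background. Below, values of single arrays are given in the order of replicates 1, 2 and 3.

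Most cell cycle transcripts had lower values in HKO livers, by small amounts, and none passed the test over all genes. Across the 40 genes, 35 had a lower and 5 a higher mean in HKO, and the median log2 change was -0.23, against -0.01 over all 22180 genes. In limma, 0 of the 40 passed adjusted p 0.05, where 0.203% of all genes did, and the lowest adjusted p was 0.109. At an unadjusted p under 0.05, 15 of the 40 (37.5%) were lower in HKO, against 6.56% of all genes, and 1 (2.5%) was higher, against 5.31% of all genes. In 15 genes all HKO values lay below all Con values, where 10.1% of all genes did so, and in 2 genes all HKO values lay above, where 8.05% did. The change exceeded 1.5-fold in 4 genes, Ccnb2, Cdkn1a, Ccnd1 and Mki67, all lower in HKO. Fewer cells in cycle and less transcript per cell cannot be told apart in liver pieces.

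The level of the signal limits what can be read. Of the 40 genes, 17 were dim, namely Cdk1, Cdkn2c, Foxm1, Rrm2, Aurka, Aurkb, Plk1, Bub1, Bub1b, Birc5, Top2a, Cenpe, Cenpf, Kif11, Kif20a, Tpx2 and Prc1. The HKO mean was below the array median in 18 genes and the Con mean in 15. Among the 23 brighter genes, 9 (39.1%) were lower at an unadjusted p under 0.05, against 9.60% of all genes at or above the array median. Of these 9, Mcm5 was above the median only through Con, with means of 3.80 in HKO and 4.18 in Con. Among the 17 dim genes, 6 (35.3%) were lower, against 3.55% of all genes below the median. The median change was -0.23 in both sets.

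**Figure D1:**
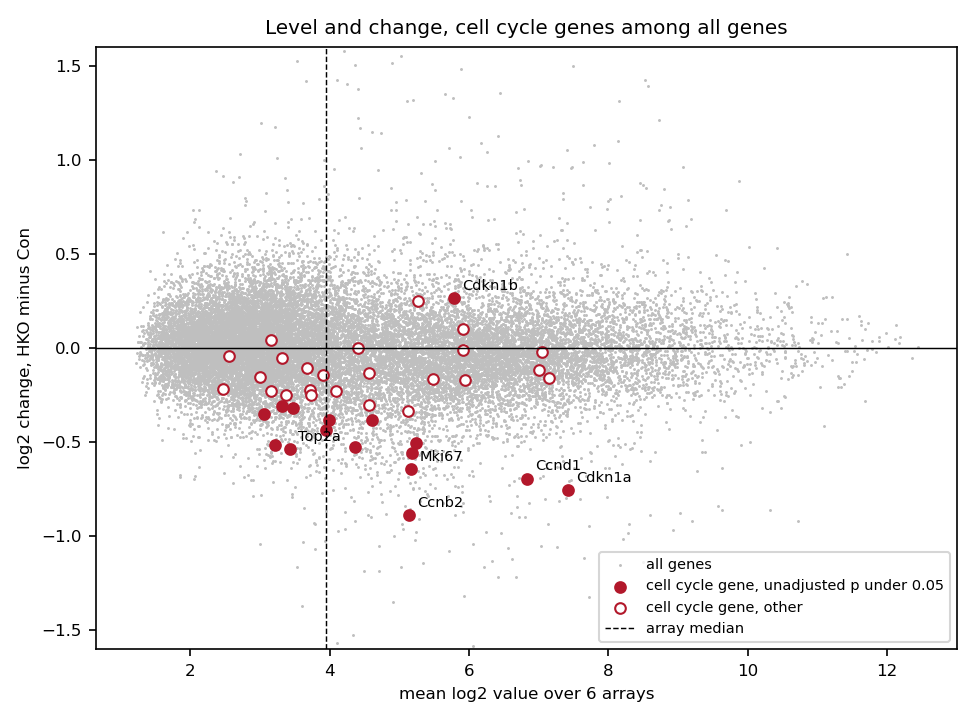
Log2 change, HKO minus Con, against the mean log2 value over 6 arrays. Grey points are all 22180 genes (28 lie beyond the axis ends of 1.6), red points the 40 cell cycle genes, filled at an unadjusted p under 0.05. The dashed line is the array median of 3.95. The filled points lie below 0 except Cdkn1b, and on both sides of the array median.

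The 40 genes were lower on each HKO array than on each Con array when averaged. Their mean log2 value was 4.44, 4.46 and 4.40 in HKO and 4.64, 4.73 and 4.71 in Con. HKO replicate 1 held the lowest of the 6 values for 11 genes, HKO replicate 2 for 8 and HKO replicate 3 for 15. The Con arrays held the lowest value for 4, 1 and 1 genes. All 3 HKO means lay below all 3 Con means, and the genes with the lowest values differed between HKO arrays, as the map of genes by array shows.

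**Figure D2:**
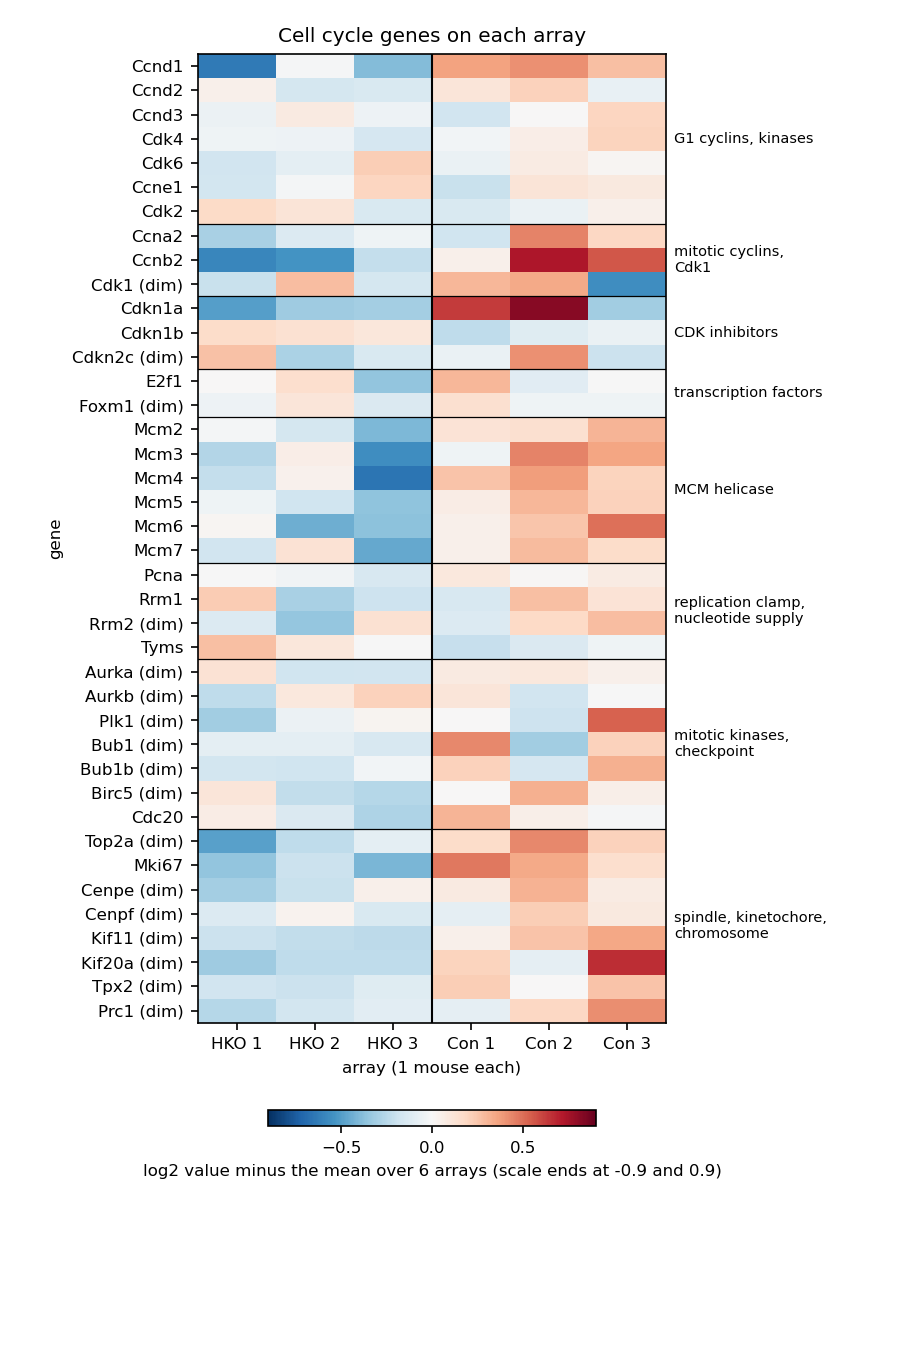
Each row is 1 of the 40 genes and each column 1 array; the colour is the log2 value minus the gene's mean over the 6 arrays, blue for lower and red for higher. HKO arrays are left of the line. 5 of the 6 MCM genes are lowest in HKO replicate 3, with Mcm4 at 4.52, and Cdkn1a is red in Con replicates 1 and 2 (8.05 and 8.24) but not in Con replicate 3 (7.11).

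Among the G1 cyclins and kinases, cyclin D1 had the lowest change. Ccnd1, which encodes the cyclin that starts the cycle in response to growth factors, had log2 values of 6.19, 6.82 and 6.44 in HKO against 7.19, 7.24 and 7.10 in Con. Every HKO value lay below every Con value, and the HKO values were more spread. The mean was 6.48 ± 0.32 in HKO and 7.18 ± 0.07 in Con (SD, n = 3 each), which differ by -0.69 ± 0.16 (SE) on the log2 scale, or 1.62-fold lower in HKO, with a limma adjusted p of 0.167. Its relatives Ccnd2 and Ccnd3 were at -0.17 (95% interval -0.43 to 0.10) and -0.01 (-0.29 to 0.27). The partner kinases Cdk4 and Cdk6 were at -0.16 and -0.02. Cdk4 had 7.10, 7.09 and 6.99 in HKO against 7.12, 7.20 and 7.34 in Con, groups that did not overlap by a narrow margin. The next step of the cycle uses cyclin E and Cdk2, and Ccne1 was at 0.00 (-0.31 to 0.31) and Cdk2 at 0.10 (-0.17 to 0.37). Of the 7 measured genes of this group, 1 (14.3%) was lower at an unadjusted p under 0.05, and 0 were dim. Of all genes at or above the array median, 9.60% were lower at that threshold.

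The inhibitors of these kinases had changes of either sign. Cdkn1a, encoding p21, an inhibitor induced by p53 and by stress, had 6.92, 7.10 and 7.11 in HKO against 8.05, 8.24 and 7.11 in Con. Con replicate 3 lay at the HKO level, so the groups overlapped and the Con spread was wide. The log2 change was -0.75 ± 0.26 (SE; limma adjusted p = 0.333). Over single arrays left out it ranged from -1.10 without Con replicate 3 to -0.53 without Con replicate 2, with limma adjusted p of 0.0378 and 0.606. Without HKO replicate 1, Con replicate 1 or Con replicate 2, Cdkn1a did not pass an unadjusted p of 0.05 either. Cdkn1b, encoding p27, which holds resting cells out of the cycle, had 5.94, 5.91 and 5.88 in HKO against 5.55, 5.67 and 5.72 in Con. All HKO values were higher, by 0.27 ± 0.10 (adjusted p = 0.356), and it was the 1 gene of the 40 that was higher at an unadjusted p under 0.05. Cdkn2c, an inhibitor of Cdk4 and Cdk6, was dim and at -0.11 (95% interval -0.55 to 0.34).

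The transcription factors of the cycle showed no difference beyond the spread of the arrays. E2f1 had 4.57, 4.71 and 4.21 in HKO against 4.87, 4.47 and 4.56 in Con, a change of -0.13 (95% interval -0.50 to 0.24). Foxm1 was dim on all arrays, with means of 2.53 ± 0.12 in HKO and 2.57 ± 0.11 in Con (SD, n = 3 each). Its change of -0.04 had an interval from -0.30 to 0.21.

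All 6 subunits of the MCM helicase, Mcm2 to Mcm7, had lower means in HKO, and 5 of the 6 were lower at an unadjusted p under 0.05. None was dim, though Mcm5 was above the array median only through its Con values. Of all genes at or above the array median, 9.60% were lower at that threshold. The subunits form 1 ring around DNA, so they are parts of a single machine. Their log2 changes lay between -0.56 for Mcm4 and -0.33 for Mcm7, with limma adjusted p from 0.282 to 0.463. Mcm4 had 4.96, 5.21 and 4.52 in HKO against 5.43, 5.55 and 5.37 in Con. Mcm6 had 4.37, 3.91 and 3.99 in HKO against 4.40, 4.61 and 4.85 in Con. In both the groups did not overlap, for Mcm6 narrowly, with HKO replicate 1 just under Con replicate 1.

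The other MCM subunits were alike in size. Mcm2 had 4.59, 4.45 and 4.20 in HKO against 4.73, 4.75 and 4.91 in Con. Mcm5 had 3.96, 3.81 and 3.63 in HKO against 4.06, 4.29 and 4.20 in Con, so its HKO mean of 3.80 was below the array median. These 2 subunits were also lower in every HKO array than in any Con array, and both had a log2 change of -0.38. In this way 4 of the 6 subunits were lower without overlap, against 10.1% of all genes. Mcm3 had 4.97, 5.29 and 4.68 in HKO against 5.19, 5.68 and 5.59 in Con, with an overlap of HKO replicate 2 and Con replicate 1. Mcm7 had 4.95, 5.26 and 4.67 in HKO against 5.17, 5.41 and 5.29 in Con, and again HKO replicate 2 overlapped. HKO replicate 3 held the lowest value of 5 subunits, and the mean over the 6 subunits was 4.63, 4.66 and 4.28 in HKO against 4.83, 5.05 and 5.04 in Con. A further pair of probe sets names Mcm7 together with a microRNA hosted in it; the log2 change was 0.41 in that shared with Mir25 and -0.16 in that shared with Mir93.

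Of the replication clamp and the enzymes of nucleotide supply, 3 of 4 had lower means in HKO and 1 a higher mean. Pcna, the sliding clamp of the DNA polymerases, had 7.0, 6.97 and 6.86 in HKO against 7.10, 7.01 and 7.08 in Con. The groups did not overlap, but the change was only -0.12 (95% interval -0.34 to 0.10). Rrm1 and Rrm2, the subunits of ribonucleotide reductase, were at -0.17 and -0.22, with intervals that include 0. Tyms, which makes thymidylate, had 5.53, 5.36 and 5.26 in HKO against 5.05, 5.13 and 5.22 in Con. Every HKO value was higher, by 0.25 ± 0.11 (SE; limma adjusted p = 0.437). Of these 4 genes 0 passed an unadjusted p of 0.05, where 6.56% of all genes were lower and 5.31% higher.

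Among the mitotic cyclins, Ccnb2 had the largest change of the 40 genes. Ccnb2, encoding cyclin B2, an activator of Cdk1, had 4.55, 4.60 and 4.93 in HKO against 5.18, 5.87 and 5.69 in Con. The groups did not overlap. The mean was 4.69 ± 0.20 in HKO and 5.58 ± 0.35 in Con (SD, n = 3 each), which differ by -0.89 ± 0.19 (SE) on the log2 scale, or 1.85-fold lower in HKO, with a limma adjusted p of 0.140. Ccna2, encoding cyclin A2 of S phase and early mitosis, had 4.27, 4.43 and 4.52 in HKO against 4.38, 5.0 and 4.75 in Con, a change of -0.30 with an overlap (adjusted p = 0.530). Cdk1 itself was dim, with 3.11, 3.60 and 3.16 in HKO against 3.61, 3.66 and 2.76 in Con. Con replicate 3 was the lowest of the 6, and the change of -0.05 had an interval from -0.62 to 0.52, so that a change of the size seen in Mcm4 lies within it.

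Genes of the spindle, the kinetochore and mitotic chromosomes had lower values throughout. All 8 had lower means in HKO, and 7 of the 8 were lower at an unadjusted p under 0.05. In those 7 the groups did not overlap. Of all genes, 6.56% were lower at that threshold, and 10.1% were lower without overlap. Of the 11141 genes below the array median, 3.55% were lower at that threshold, and 557 genes were lower without overlap. Only Mki67 of the 8 was not dim. Mki67 encodes the Ki-67 protein, which coats mitotic chromosomes and marks cells in cycle. It had 4.81, 4.97 and 4.75 in HKO against 5.64, 5.51 and 5.32 in Con. The mean was 4.84 ± 0.11 in HKO and 5.49 ± 0.16 in Con (SD, n = 3 each). The log2 change of -0.64 ± 0.12 (SE), or 1.56-fold lower in HKO, had the lowest adjusted p of the 40 genes, 0.109 in limma. It passed when genes below the array median were left out before the test (adjusted p = 0.0447) and with a variance trend (adjusted p = 0.0460).

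Top2a, the topoisomerase that untangles replicated chromosomes, had 2.93, 3.19 and 3.34 in HKO against 3.59, 3.86 and 3.63 in Con, a change of -0.54 ± 0.14 (SE; limma adjusted p = 0.205). All 6 values lay below the array median. A pair of probe sets annotated to both Top2a and Taf1d, a subunit of an RNA polymerase I factor, went the other way, with changes of 0.22 and 0.26. Those probe sets cannot be assigned to either gene. Kif11, a motor that pushes the spindle poles apart, had 3.74, 3.72 and 3.71 in HKO against 3.99, 4.20 and 4.29 in Con, a change of -0.44 ± 0.11 (adjusted p = 0.206). Its HKO values were nearly equal, and its Con values all lay above the array median of 3.95.

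The remaining spindle genes had lower signal. Kif20a, a motor of the central spindle, had 2.89, 2.98 and 2.98 in HKO against 3.41, 3.13 and 3.87 in Con. Tpx2, which activates Aurora A on the spindle, had 3.3, 3.28 and 3.37 in HKO against 3.70, 3.48 and 3.73 in Con. Prc1, which bundles the microtubules of the central spindle, had 2.79, 2.89 and 2.95 in HKO against 2.97, 3.24 and 3.47 in Con. These genes were lower on every HKO array, with log2 changes of -0.52, -0.32 and -0.35. The motor Cenpe of the kinetochore, also lower on every HKO array, had 3.01, 3.12 and 3.36 in HKO against 3.40, 3.63 and 3.39 in Con. Its change was -0.31, and the kinetochore protein Cenpf, the exception of the 8, was at -0.15 with an interval from -0.42 to 0.11.

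Among the mitotic kinases and checkpoint genes no member passed either threshold. Of the 7, 6 had lower means in HKO and 0 were lower at an unadjusted p under 0.05, and in 0 of them were the groups without overlap. Of the 11141 genes below the array median, where 6 of the 7 lay, 3.55% were lower at that threshold. Of these genes, 557 were lower without overlap. Counts of 0 among 7 genes are near these shares. Their changes lay between -0.25 for Bub1b, a component of the spindle checkpoint, and 0.04 for Aurkb, the Aurora kinase of the chromosomal passenger complex. Bub1b had 3.20, 3.19 and 3.35 in HKO against 3.58, 3.22 and 3.69 in Con (limma adjusted p = 0.543). Birc5, the survivin subunit of the same complex, was also at -0.25, Plk1, a kinase of mitotic entry, at -0.23, and Cdc20, an activator of the anaphase-promoting complex, at -0.23. Bub1 and Aurka were at -0.22 and -0.15. Only Cdc20 was not dim, with means of 3.97 in HKO and 4.20 in Con. A difference between this group and the spindle group was not tested.

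**Figure D3:**
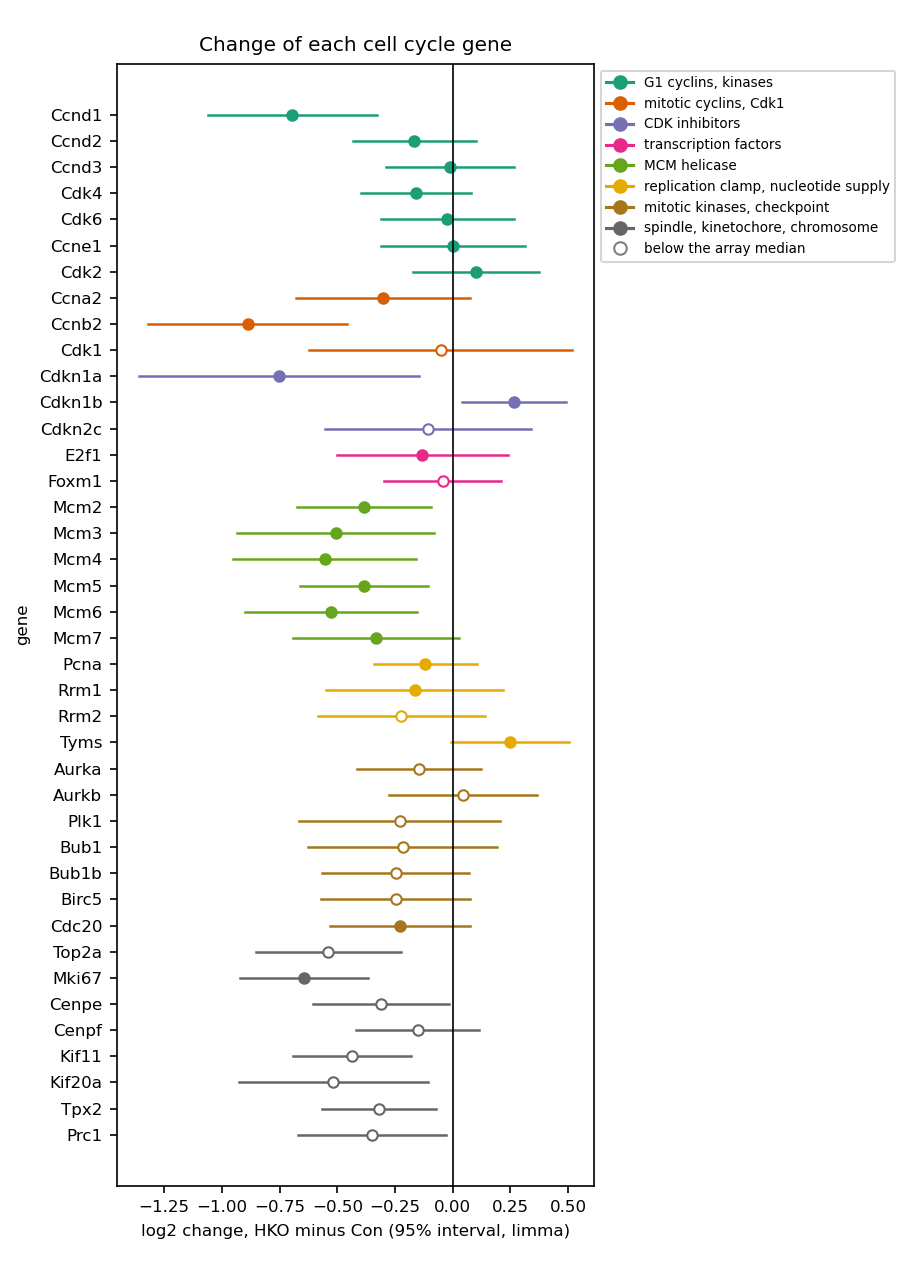
Log2 change, HKO minus Con, of each of the 40 genes with limma's 95% interval, coloured by role; open points are genes below the array median. Intervals of Ccnd1, Ccnb2, Cdkn1a, 5 of the MCM genes and 7 of the spindle genes lie below 0, and that of Cdkn1b lies above 0.

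Promoter sequences are shown for Ccnb2, Kif11, Top2a and Mcm6, with the letters known from cell cycle promoters in capitals. These genes were picked by hand and not by a rule, and each was lower at an unadjusted p under 0.05. Windows from 250 bases before to 50 after the transcription start were at hand for 33 of the 42 listed genes (38 windows, RefSeq, GRCm38.p6). They were searched on both strands for TTTGAA (the CHR element of mitotic promoters), TTCCCGC or TTGGCGC (E2F sites), CCAAT (bound by NF-Y) and CAGGTG (an E-box bound by Slug). The 250 bases before the start of Ccnb2 (chr9:70421555-70421804, minus strand), Kif11 (chr19:37376132-37376381, plus strand), Top2a (chr11:99024190-99024439, minus strand) and Mcm6 (chr1:128359706-128359955, minus strand) read 5′ to 3′ as follows, with each match of these letters in capitals.
Ccnb2: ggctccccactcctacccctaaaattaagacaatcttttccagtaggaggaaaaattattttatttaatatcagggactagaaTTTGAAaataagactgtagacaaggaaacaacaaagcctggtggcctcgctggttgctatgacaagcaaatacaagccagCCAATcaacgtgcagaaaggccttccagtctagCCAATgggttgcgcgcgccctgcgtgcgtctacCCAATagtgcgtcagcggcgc
Kif11: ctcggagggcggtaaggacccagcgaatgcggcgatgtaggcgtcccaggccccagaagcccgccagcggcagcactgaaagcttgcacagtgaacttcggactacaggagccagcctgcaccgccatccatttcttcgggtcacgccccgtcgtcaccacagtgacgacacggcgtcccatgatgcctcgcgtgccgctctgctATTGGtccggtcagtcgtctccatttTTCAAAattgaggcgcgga
Top2a: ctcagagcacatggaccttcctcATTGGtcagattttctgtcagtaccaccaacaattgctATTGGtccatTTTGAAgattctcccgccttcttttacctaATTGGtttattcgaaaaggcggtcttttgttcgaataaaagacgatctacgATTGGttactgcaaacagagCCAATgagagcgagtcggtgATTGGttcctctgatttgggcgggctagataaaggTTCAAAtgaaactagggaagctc
Mcm6: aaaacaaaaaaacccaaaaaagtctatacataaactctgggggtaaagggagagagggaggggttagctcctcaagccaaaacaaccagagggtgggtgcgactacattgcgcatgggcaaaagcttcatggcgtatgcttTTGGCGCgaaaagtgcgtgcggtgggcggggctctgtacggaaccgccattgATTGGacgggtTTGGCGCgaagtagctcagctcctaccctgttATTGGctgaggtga

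In these windows the mitotic genes and the helicase gene differ in their letters. Ccnb2, Kif11 and Top2a hold the CHR letters and CCAAT, and Mcm6 holds the letters TTGGCGC at 2 places beside CCAAT boxes and no CHR letters. Over all 32851 windows of the table, 17.9% held CHR, 6.81% an E2F site, 37.4% CCAAT and 20.2% CAGGTG. Among the 38 windows of listed genes, 13 (34.2%) held CHR, 11 (28.9%) an E2F site, 28 (73.7%) CCAAT and 2 (5.26%) CAGGTG. CHR was present in 6 of 7 windows of the spindle group and 4 of 6 windows of the mitotic kinases, against 1 of 6 of the MCM genes and 0 of 6 of the G1 cyclins and kinases. E2F sites were present in 5 of 6 MCM windows. The CAGGTG letters occurred in a window of Cdkn1a and in that of Tyms. Of 90 matches, 2 pairs of different motifs overlapped. These are matches of letters in short windows, some genes have several windows, and binding was not measured.

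Genes of the same pathways outside the 42 had lower values in HKO more often than higher ones. Of 171 further gene symbols in 9 lists of cell cycle functions, 163 were measured, of which 114 (69.9%) had a lower mean in HKO and 49 a higher one. Sgo1 and Sgo2a were also listed under the older symbols Sgol1 and Sgol2a, which were not measured. Of all genes 51.8% had a lower mean. Of the 163 genes, 65 were dim, among them 21 of the 23 measured for spindle motors and cytokinesis. In the kinetochore and spindle checkpoint list 10 of 19 were dim. The median log2 change of the 163 genes was -0.12. In limma 0 passed adjusted p 0.05, while at an unadjusted p under 0.05, 25 (15.3%) were lower, against 6.56% of all genes, and 4 (2.45%) higher, against 5.31% of all genes. By list, the median was -0.15 for origin licensing and firing, -0.12 for DNA synthesis, -0.12 for the kinetochore and spindle checkpoint and -0.12 for spindle motors and cytokinesis. It was -0.12 for cohesin and condensin, -0.15 for G2/M control, -0.04 for the Rb, E2F and DREAM regulators, 0.04 for the other CDK inhibitors and 0.02 for the other cyclins and CDKs, which mostly act in transcription. The last list stood close to all genes in its median and in direction, with 9 of 18 lower and 9 higher. At an unadjusted p under 0.05, 2 of the 18 (11.1%) were lower, against 6.56% of all genes, and 0 higher, against 5.31%. Of the 18, 16 were not dim, and 9.60% of all genes at or above the array median were lower at that threshold. In 4 of the 18 the HKO values lay below all Con values, a larger share than the 10.1% of all genes.

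Named genes of these lists with the lowest p showed both directions. Ube2c, the ubiquitin-conjugating enzyme of the anaphase-promoting complex, had 3.34, 3.37 and 3.24 in HKO against 3.70, 4.11 and 4.19 in Con, a change of -0.68 ± 0.14 (SE; limma adjusted p = 0.136). The condensin subunit Ncapg2 was at -0.60 (adjusted p = 0.136), the chromatin factor Uhrf1 of DNA methylation maintenance at -0.49, and the checkpoint kinase Ttk and the kinetochore scaffold Knl1 at -0.41 and -0.47. E2f2 and its partner Tfdp1 were at -0.40 and -0.37, Dbf4 and Cdc45 of origin firing at -0.46 and -0.26, the cytokinesis motor Kif23 at -0.53, the spindle protein Ckap2 at -0.43 and the condensin subunit Ncaph at -0.42. The anaphase-promoting complex subunit Anapc5 was at -0.43, and the kinases Cdk11b and Cdk7, with roles in transcription, at -0.35 and -0.31. Cdkn1c and Cdkn3 were at 0.22 and -0.26. Of the genes named here, Ube2c, Ncapg2, Ttk, Knl1, E2f2, Dbf4, Kif23, Ckap2, Ncaph, Cdkn1c and Cdkn3 were dim. In Ckap2, Ncaph and Cdkn3 the groups overlapped.

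The 4 that were higher at an unadjusted p under 0.05, a smaller share than among all genes, were Tk1, Cenpm, Wee1 and Cks2, the last 3 named after their values were seen. Tk1, the thymidine kinase that salvages thymidine for DNA synthesis, had 7.28, 6.57 and 6.49 in HKO against 5.83, 5.80 and 5.58 in Con. All HKO values were higher, by 1.04 ± 0.21 (SE), or 2.06-fold, with a limma adjusted p of 0.121. The kinetochore gene Cenpm was at 0.66, the kinase Wee1, which restrains Cdk1, at 0.54, and Cks2, a Cdk-binding protein, at 0.27. The highest change of the 163 genes was that of E2f8, an E2F family member that represses transcription, also named after its values were seen. It had 4.15, 6.68 and 6.73 in HKO against 4.11, 4.57 and 4.92 in Con. HKO replicate 1 lay within the Con values, and the change of 1.32 had a wide 95% interval, from -0.11 to 2.75 (limma adjusted p = 0.463).

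Stress and growth signals were read from 2 further lists. Of 17 measured p53 targets, 14 had lower means in HKO, with a median of -0.07, and 0 passed adjusted p 0.05. Of the 17, 15 lay at or above the array median, where 9.60% of all genes were lower at an unadjusted p under 0.05. At that threshold 2 of the 17 (11.8%) were lower, against 6.56% of all genes. These were Btg2, an antiproliferative gene, at -0.60 ± 0.16 (SE; limma adjusted p = 0.221) and Sesn2, a stress-induced regulator of mTOR signalling, at -0.39. Of 23 measured hepatocyte mitogens, their receptors and pathway genes, 4 (17.4%) were higher at an unadjusted p under 0.05, against 5.31% of all genes, and 0 lower, against 6.56%, with a median of -0.04. None of the 23 passed adjusted p 0.05 in limma. They were the receptors Il6ra (0.48 ± 0.13, adjusted p = 0.231), Erbb3 (0.44) and Egfr (0.81) and the growth factor Fgf1 (0.31), of which Egfr and Fgf1 were named after their values were seen.

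**Figure D4:**
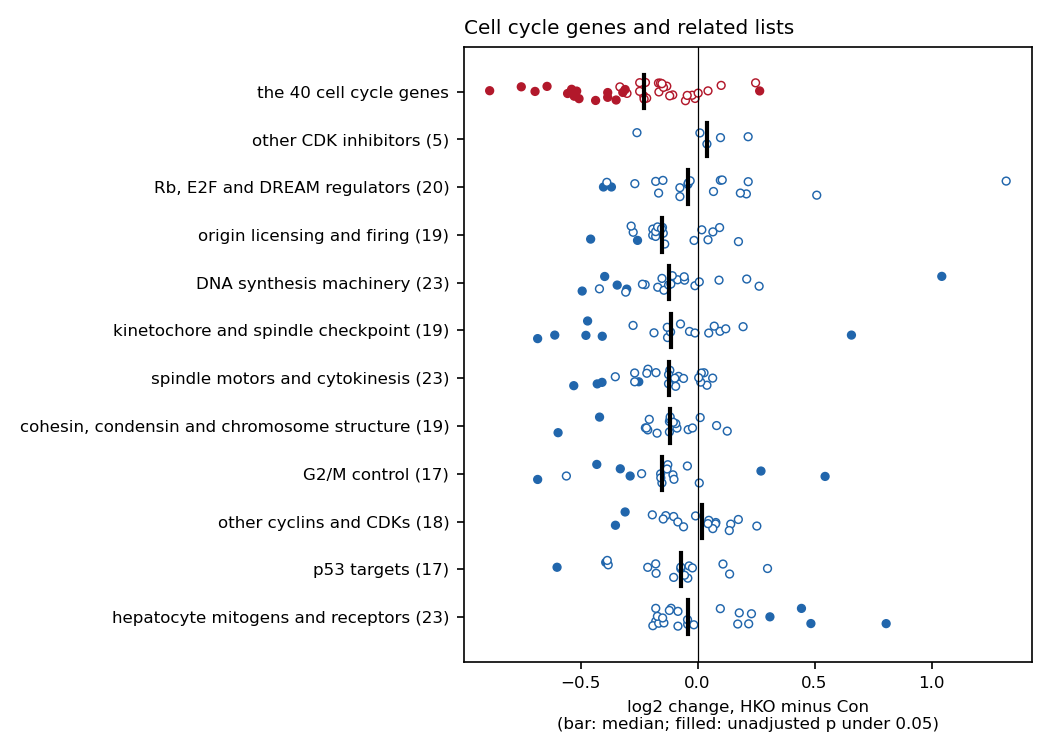
Log2 change, HKO minus Con, of each gene in the 40 cell cycle genes (red) and 11 related lists (blue, number measured in parentheses); filled points have an unadjusted p under 0.05 and bars are medians. The bar of the 40 genes is at -0.23, those of the related lists between -0.15 and 0.04, Tk1 is the filled point at 1.04 and E2f8 the open point at 1.32.

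Markers of other cell types differed between the groups as well. Of 8 measured markers of macrophages that derive from monocytes or take up lipid, 8 had lower means in HKO, and the mean log2 value of the list was 4.55 to 4.98 in HKO against 5.18 to 5.41 in Con, with 3 of the 8 below the array median. Itgax, an integrin of recruited macrophages and dendritic cells, passed (limma adjusted p = 0.0280), and Gpnmb was at -1.18. Stellate cell and fibroblast markers had 5.97 to 6.18 in HKO against 6.39 to 6.64 in Con, with 7 of 9 lower, 0 below the array median and Col1a2 past the threshold (adjusted p = 0.0415). T and NK cell markers overlapped, with 3.40 to 3.45 in HKO and 3.24 to 3.85 in Con, and 6 of 8 lay below the array median. So did Kupffer cell markers, with 6.63 to 6.88 in HKO and 6.69 to 7.10 in Con, and 0 of 8 below the median.

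The other marker lists were closer or went the other way. Hepatocyte markers had 10.70 to 10.88 in HKO against 10.65 to 10.69 in Con. B and plasma cell markers had 4.20 to 4.35 in HKO against 3.77 to 3.90 in Con, with 6 of 6 higher and 3 of 6 below the array median. Sinusoidal endothelial markers had 7.68 to 7.75 in HKO against 7.79 to 7.85 in Con, with 4 of 7 lower and 3 higher. Neutrophil markers had 2.352 to 2.491 in HKO against 2.494 to 2.600 in Con, with 7 of 7 below the array median. Cholangiocyte markers had 3.515 to 3.731 in HKO against 3.734 to 3.758 in Con, with 4 of 6 below the median. Of the erythroid markers, 3 of 6 were measured, with 3.77 to 3.98 in HKO and 3.65 to 4.03 in Con. Macrophage and stellate markers thus had lower mean values on every HKO array than on any Con array, as the cell cycle genes did. Sinusoidal endothelial, neutrophil and cholangiocyte markers did so only by a narrow margin. Hepatocyte and B and plasma cell markers had higher mean values on every HKO array, for hepatocyte markers by a narrow margin. The part of these cell types in the lower cell cycle values was not tested.

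**Figure D5:**
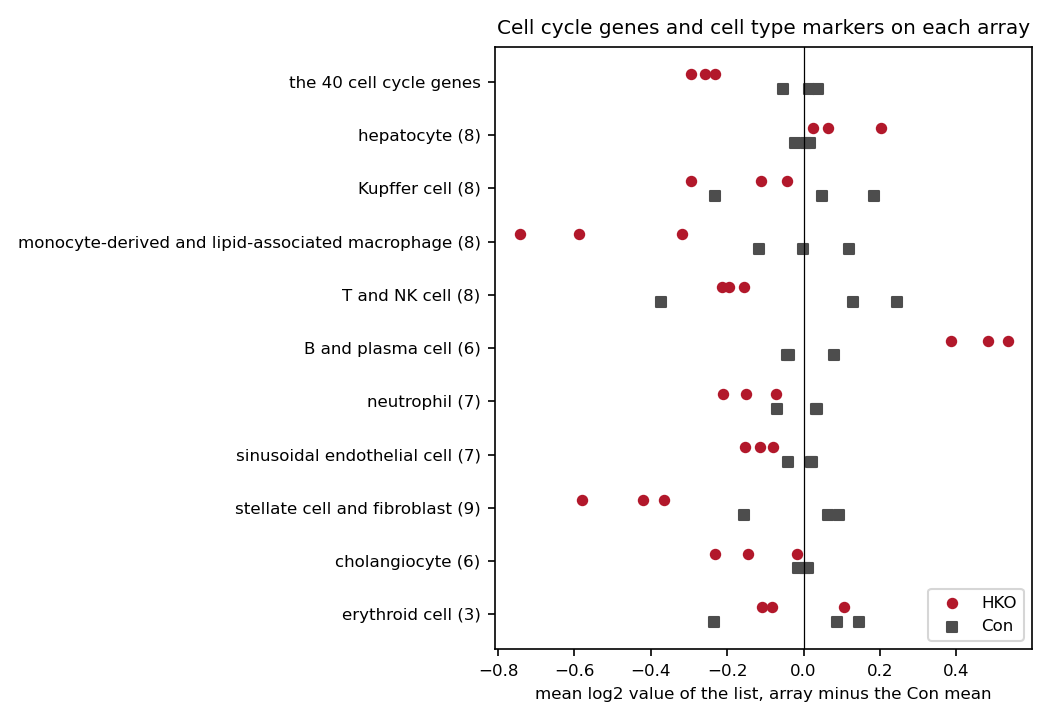
Mean log2 value of each list on each array, relative to the mean of the 3 Con arrays; circles are HKO and squares Con arrays, and the number measured is in parentheses. Cell cycle genes and macrophage, stellate, sinusoidal endothelial, neutrophil and cholangiocyte markers lie lower on all 3 HKO arrays than on any Con array. The margin is narrow for sinusoidal endothelial, neutrophil and cholangiocyte markers. T and NK cell, Kupffer cell and erythroid markers overlap, and hepatocyte and B and plasma cell markers lie higher, hepatocyte markers narrowly.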

How the data were processed

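Liver RNA of 3 HKO and 3 Con mice was hybridised to 1 array each. The deposited values are log2 signals of probe sets; the submitters' processing notes name RMA and R 3.3.0. RMA gives all arrays 1 distribution, and compresses changes of dim genes. The sources used here name no genome build and no filter. Of 41345 probe sets, 23521 had 1 gene, 1814 several and 16010 none; only the first kind was used, through Entrez identifiers (23328 found in a RefSeq table of GRCm38.p6, 0 symbols changed). Of the 22180 genes, 1082 had more than 1 probe set.

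HKO was compared with Con across all genes with limma 3.58.1 in R 4.3.3 (group as the only term, two-sided, Benjamini-Hochberg over 22180 genes); standard errors and 95% intervals are limma's. No filter was applied. The fit was tested on simulated data. The members, roles, motifs and lists were chosen with earlier results of these data known, so counts and medians of lists carry no p. Values on every array are given for members at an unadjusted p under 0.05, the lowest p of each role, and Ccnd1, Cdkn1a, Cdk1, Mki67 and Top2a, and for some others; of other lists, the 2 genes with the lowest p and those past the threshold were named, but of the marker lists only some. Arrays have no read depth, so their number limits the precision. Replicate numbers did not pair the arrays: deviations of same-numbered arrays from their group means correlated at 0.03, 0.02 and 0.02. Alternatives were another quantile normalization, centring, a filter on dim genes, array weights, averaging of probe sets, a robust variance, a variance trend, a replicate block and leaving out each array. The plots were made in Python 3.11.15 (matplotlib 3.10.9). The p-values rest on 3 mice a group.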

Additional observations from a re-analysis of the deposited data

Results flagged for a closer look

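A probe set annotated to both Top2a and Taf1d, which was left out of the fit because it names several genes and is given above only by its difference, had higher signal on every HKO array than on any Con array. Its log2 values were 7.20, 7.30 and 7.42 in HKO against 6.93, 7.12 and 7.09 in Con, a difference of 0.26. The probe set of Top2a alone was lower on every HKO array, by 0.54 on the log2 scale at a dim level. Which of the named genes gives the shared signal was not tested.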

How the results depend on the processing

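Of 14 alternatives, none gave a call higher in HKO among the 40 genes, and the count called lower at adjusted p 0.05 was 0 except as follows. It was 1 (Mki67) with genes below the array median left out and 1 (Mki67) with a variance trend. Leaving out each array in turn gave 0 to 1 called lower, the 1 being Cdkn1a without Con replicate 3. The limma adjusted p of Cdkn1a reached 0.606 without Con replicate 2. The count over all genes, 45 in the fit reported, was 139 with dim genes left out (11039 genes tested), 215 with the variance trend, and from 4 without Con replicate 2 to 32 without Con replicate 3. It was 5 without Con replicate 1, 25, 6 and 16 without HKO replicates 1, 2 and 3, and 40 to 47 under the other normalizations, centring, weights, robust variance and averaging. With dim genes left out, the 23 genes still tested gave 9 lower at an unadjusted p under 0.05, 2 higher, and 9 with no overlap and lower in HKO. The count higher at an unadjusted p under 0.05 was 2 with a second quantile normalization and 0 to 2 over arrays left out. The count lower was 11 to 14 over arrays left out.

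The median change was -0.28 to -0.19 over arrays left out, the lowest being without Con replicate 1. In the same fits the change of Cdk1 was -0.34 to 0.11 and that of E2f1 -0.24 to 0.011, so neither kept its direction; the cause was not tested. With the replicate block, 3 genes of all passed, and of the 40 genes 15 were lower and 0 higher at an unadjusted p under 0.05; same-numbered arrays share only a number. The number of arrays and the dim signal of 17 genes limit these values.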
